A study of Mus musculus with 6 samples.

Results

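Genes of red blood cells were followed in tissue around the mouse inner ear at embryonic day 11.5. The group holds 35 genes, taken by symbol from an annotation of the arrays: embryonic globins, enzymes of heme synthesis, proteins of the red cell membrane and erythroid regulators. Of these, 34 had a probe set (Ahsp had none with 1 symbol) and 33 passed a filter on dim genes and were tested, out of 14170 genes tested in all. Tspo2 was left out by the filter, reading 3.51 to 13.1 over the 6 arrays where the brightest of 27 probe sets for bacterial RNA that was not added read 11.2. The tissue was the otic vesicle, the epithelial sac that becomes the inner ear, dissected with the mesenchyme around it. Mest-KO pools carried a conditional knockout of the T-box gene Tbx1 made with T-Cre, a recombinase active in mesoderm, and control pools carried T-Cre with Tbx1 conditionally heterozygous; the controls are therefore not wild type. Each of the 3 arrays of a group held RNA of both ears of 3 embryos. Every test thus compares 3 pools with 3 pools, the number of arrays limits the precision, and an exact permutation test of 3 against 3 cannot go below a p of 0.1. Tbx1 itself read 525, 567 and 447 (controls 1 to 3) against 520.5, 578 and 409.9 (Mest-KO 1 to 3) and did not separate the groups (-0.035 ± 0.14 log2; limma adjusted p = 0.967); cells outside mesoderm also make Tbx1, and whether its probe set lies in the deleted stretch is not given in the sources used here.

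Red cells of this stage come mostly from the yolk sac. They circulate while still nucleated and carry embryonic hemoglobins, whose chains include a zeta-type alpha chain (Hba-x) and the epsilon-y and beta-h1 chains (Hbb-y, Hbb-bh1). Gata1 and Klf1 are the main transcription factors that switch on globin, heme and membrane genes together. In a dissected piece of embryo these transcripts come with whatever blood its vessels hold, and fewer red cells in a pool cannot be told apart from less RNA per red cell.

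No erythroid gene differed between Mest-KO and control at the threshold. Of the 33 tested, 0 passed (limma, adjusted p under 0.05; adjusted p from 0.417 to 0.965), where 0.148% of all genes did (0.0847% higher and 0.0635% lower in Mest-KO; 12 and 9 genes, or 10 and 11 after quantile normalization and 22 and 56 after median centring of arrays). At an unadjusted p under 0.05 limma gave 4 erythroid genes, each lower in Mest-KO, namely Hbb-y, Slc25a37, Icam4 and Hemgn, and 3.24% of all genes were lower and 5.73% higher at that level (8.97% in all). The 3 Mest-KO values lay below all 3 control values for Slc25a37, Icam4 and Hemgn, a pattern that 5.22% of all genes showed. No erythroid gene had all Mest-KO values above the controls, as 9.32% of all genes did. The log2 difference, Mest-KO minus control on the log2(intensity + 16) scale, given with its standard error for single genes, had a median of -0.16 over the 33 genes and 0.013 over all genes.

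The larger pattern lay inside the Mest-KO group. By the brightest probe set of each gene, Mest-KO 1 read above Mest-KO 3 in 33 of 33 erythroid genes, against 54.5% of all genes. The excess was slight for Bpgm (1.005-fold), Urod (1.01-fold) and Alad (1.015-fold), and dimmer probe sets did not all share the order. Those of Bpgm gave 1.02-fold and 0.915-fold, those of Tfrc 1.13-fold and 0.849-fold, that of Urod 0.999-fold and that of Sptb 0.807-fold. Mest-KO 3 was the lowest of the 6 arrays for 26 of them, against 19% of all genes, and Mest-KO 1 the highest for 20, against 23.5%. The 21 tested genes that are made mainly in red cells showed it most often, with Mest-KO 3 lowest in 20 (all but Icam4), while among the 12 that many other cells also make it was lowest in 6. That split was made with earlier results of these data known, so this contrast is a description only. Mest-KO 3 was lowest and Mest-KO 1 highest at once for 15 of 33, against 4.54% of all genes. The log2 range was wider over the Mest-KO pools than over the controls in 27 of 33 and in 20 of 21 (all but Hbb-y), against 52.4%. With 16 added to each intensity, Mest-KO 1 exceeded Mest-KO 3 by 1.5-fold or more in 19 of 33 (3.49% of all genes) and by 2-fold or more in 14 (0.536%); the 2-fold genes were Cpox and 13 of those made mainly in red cells. Genes expressed in the same cells are not independent observations. Each array is 1 pool, so the difference between Mest-KO 1 and Mest-KO 3 has no test.

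**Figure D1:**
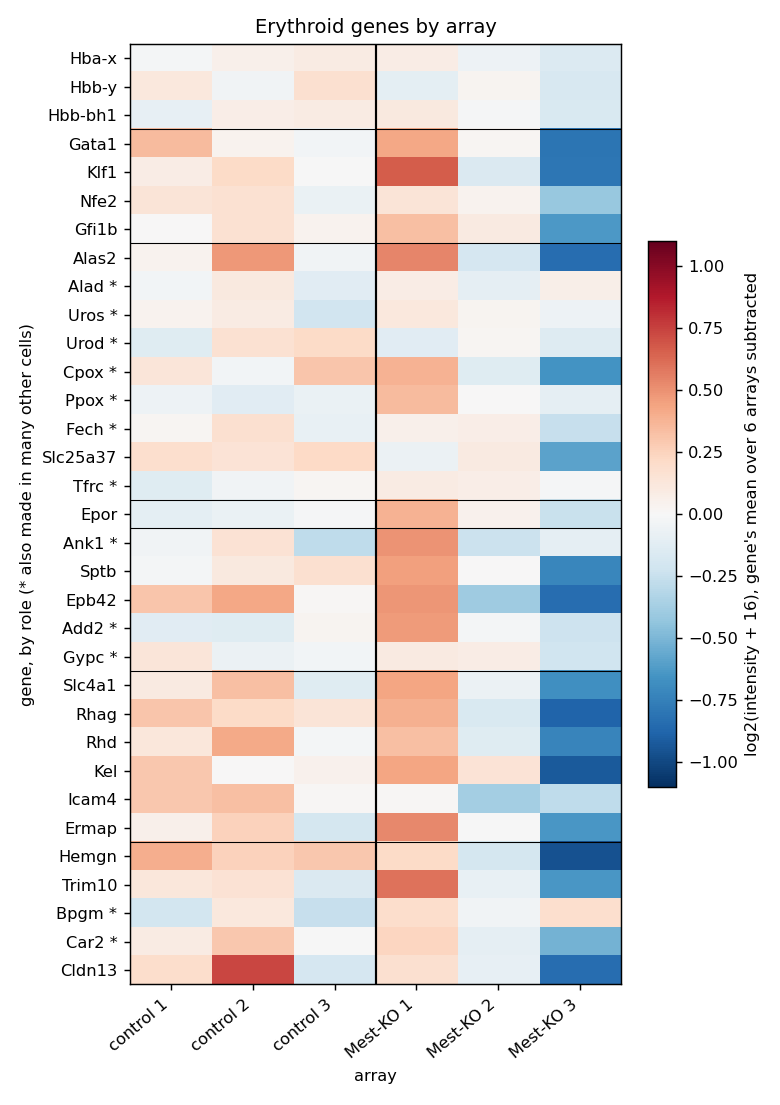
Each row is a tested erythroid gene, grouped by role between the black lines, and each column an array; colour gives log2(intensity + 16) less the gene's mean over the 6 arrays. The Mest-KO 3 column is blue for nearly every gene made mainly in red cells, while Mest-KO 1 is mostly red and the globin rows at the top are pale.

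The embryonic globin genes had small group differences and varied little between pools. Hba-x, the embryonic alpha-type chain, read 9202, 9717 and 9915 (controls 1 to 3) against 9874, 8949 and 8400.3 (Mest-KO 1 to 3). Hbb-y, the epsilon-y chain, read 15464, 13932 and 16128 (controls 1 to 3) against 13291, 14565 and 12632 (Mest-KO 1 to 3). Hbb-bh1, the beta-h1 chain, read 9451, 10548 and 10713 (controls 1 to 3) against 10813, 9982 and 8918 (Mest-KO 1 to 3). In each of them Mest-KO 3 was the lowest array, and the groups overlapped. The log2 differences were -0.085 ± 0.066 for Hba-x (95% interval -0.23 to 0.060), -0.17 ± 0.068 for Hbb-y (-0.32 to -0.020) and -0.050 ± 0.076 for Hbb-bh1 (-0.22 to 0.12), with limma adjusted p of 0.756, 0.483 and 0.892. With quantile normalization the difference of Hbb-bh1 was 0.019. Its other probe sets, nearly as bright, gave -0.10 ± 0.084 and -0.16 ± 0.081 in a fit over probe sets. Those of Hbb-y gave -0.17 ± 0.079 and -0.12 ± 0.065. Mest-KO 1 exceeded Mest-KO 3 by 1.18-fold for Hba-x, 1.05-fold for Hbb-y and 1.21-fold for Hbb-bh1. The brightest probe set of each array read 14957 to 17903 and was that of Hbb-y in control 1, so the globins lay near the top of the scale. Whether the signal still grew in proportion to RNA there was not tested, and beta-type globin genes are near-identical in places, so the probe sets of Hbb-y and Hbb-bh1 may share signal, which makes their values uncertain.

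Transcription factors of the erythroid line varied more from pool to pool. Klf1, which activates the beta-type globin genes, read 336, 368 and 316 (controls 1 to 3) against 512, 281 and 175 (Mest-KO 1 to 3). Gata1, needed for red cells to mature, read 304, 242 and 231 (controls 1 to 3) against 321, 238 and 128 (Mest-KO 1 to 3). For both, Mest-KO 1 lay above and Mest-KO 3 below all 3 controls, by 2.92-fold from Mest-KO 3 to Mest-KO 1 for Klf1 and 2.51-fold for Gata1. Between the groups the log2 differences were no larger than their standard errors, at -0.19 ± 0.28 (adjusted p = 0.887, limma) and -0.24 ± 0.26 (adjusted p = 0.839). Nfe2, a partner of small Maf proteins at globin enhancers, ran from 136 in Mest-KO 3 to 214 in control 2. Gfi1b, a repressor that red cell precursors need, ran from 31.4 in Mest-KO 3 to 76.1 in Mest-KO 1. Without Mest-KO 3, the log2 differences of all 4 factors turned from below to above 0, to 0.099 for Gata1, 0.16 for Klf1, 0.013 for Nfe2 and 0.14 for Gfi1b. Epor, the erythropoietin receptor, read 85.5, 87.6 and 92.4 (controls 1 to 3) against 127, 96.8 and 76 (Mest-KO 1 to 3), and its log2 difference of 0.13 ± 0.18 was the only one above 0 among the genes made mainly in red cells.

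**Figure D2:**
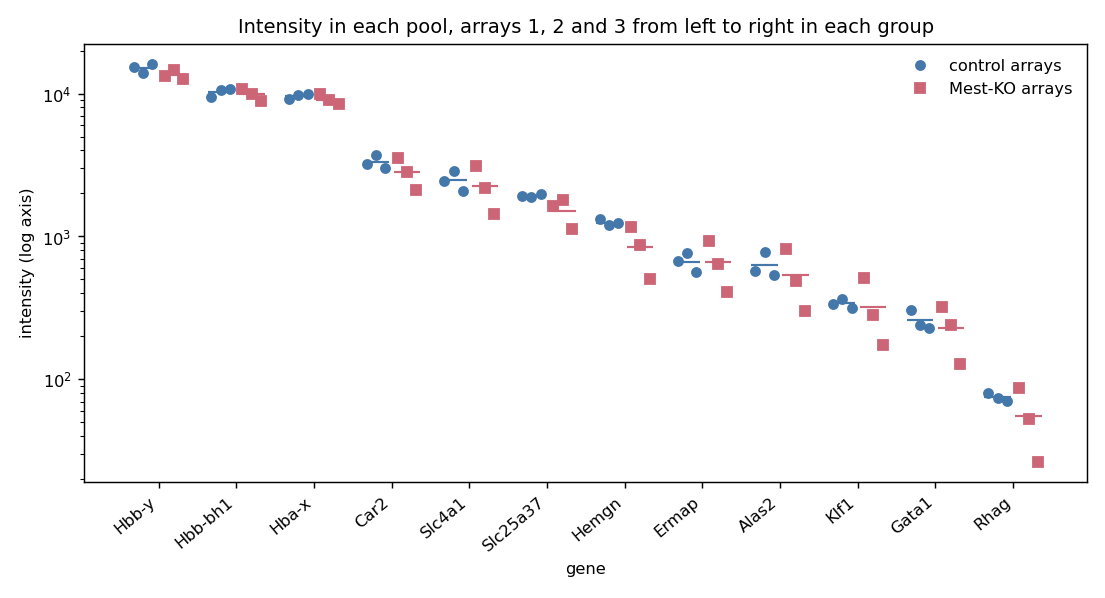
Intensity on a log axis for 12 erythroid genes in the 3 control arrays (circles) and the 3 Mest-KO arrays (squares), with the bar at each group's mean; levels are not compared between genes. For Klf1 and Rhag the 3 control points sit close together while the Mest-KO points lie both above and below them, and for the 3 globins on the left all points lie together.

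Heme is made in a chain of enzymes that every cell owns, starting in red cells with Alas2, the erythroid form of the rate-limiting step. Alas2, given in full after its values were seen, read 569.7, 777 and 538 (controls 1 to 3) against 812, 486 and 302 (Mest-KO 1 to 3). Its spread inside Mest-KO, 2.69-fold, exceeded the difference of the groups (-0.32 ± 0.28; adjusted p = 0.79, limma). Slc25a37, the carrier that brings iron into mitochondria, read 1931, 1881 and 1972 (controls 1 to 3) against 1622, 1811 and 1119 (Mest-KO 1 to 3). Its 3 controls lay within a narrow band and all Mest-KO pools below it, Mest-KO 3 by the most (-0.37 ± 0.15; limma adjusted p = 0.475; exact permutation p = 0.1, the smallest that 3 against 3 can give). Urod, which decarboxylates uroporphyrinogen, read 4189, 5162 and 5303 (controls 1 to 3) against 4213, 4668 and 4171 (Mest-KO 1 to 3), and the groups overlapped (-0.16 ± 0.092). A second bright probe set of Urod gave -0.068 ± 0.091 in a fit over probe sets, and its lowest array was Mest-KO 2.

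Tfrc, the transferrin receptor that takes up iron in all dividing cells, read 3433, 3662 and 3819 (controls 1 to 3) against 4016, 3968 and 3745 (Mest-KO 1 to 3). Its lowest array was control 1 and its highest Mest-KO 1, and the log2 difference was 0.10 ± 0.068 (adjusted p = 0.695, limma). Fech, which inserts iron into the ring as the last step, read 2336, 2603 and 2177 (controls 1 to 3) against 2387, 2419 and 1929.6 (Mest-KO 1 to 3), with a log2 difference of -0.082 ± 0.10. Mest-KO 3 was lowest and the groups overlapped. Other bright probe sets of Fech read further below control, at -0.41 ± 0.16 and -0.36 ± 0.13 in a fit over probe sets. Cpox, an enzyme of the mitochondrial steps, followed the red cell pattern, 2.1-fold higher in Mest-KO 1 than in Mest-KO 3 (-0.28 ± 0.21 between groups). Ppox, which acts after Cpox, differed by 0.17 ± 0.12, Alad by 0.032 ± 0.088 and Uros by 0.057 ± 0.11. In the fit over probe sets, a second probe set of Ppox gave 0.32 ± 0.13 and that of Alad 0.15 ± 0.22. A dim second probe set of Uros gave -0.49 ± 0.17. Of the 9 genes of heme synthesis and iron import, 0 passed, 5 were lower and 4 higher in Mest-KO, and the median was -0.082.

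Under the red cell membrane lies a skeleton of spectrin, ankyrin, adducin and protein 4.2. Gypc, a glycophorin that anchors this skeleton and is made in other cells too, read 1378, 1204 and 1228 (controls 1 to 3) against 1348, 1329 and 1074 (Mest-KO 1 to 3), and its groups overlapped (-0.027 ± 0.11). Add2, beta-adducin, which neurons also make, read 264, 262 and 296 (controls 1 to 3) against 407, 285 and 245 (Mest-KO 1 to 3). Mest-KO 1 stood alone above the other 5 arrays for Add2, whose group difference was 0.15 ± 0.17 (adjusted p = 0.85, limma). Ank1, ankyrin, differed by 0.11 ± 0.21, Sptb, beta-spectrin of red cells, by -0.17 ± 0.26 and Epb42, protein 4.2, by -0.50 ± 0.28. Inside Mest-KO, Sptb and Epb42 were 3.25-fold and 2.95-fold higher in array 1 than in array 3, and Ank1, whose lowest array was control 3, 1.61-fold. Dim second probe sets did not show this spread, at 0.807-fold for Sptb and 1.1-fold for Epb42. Sptb was dim by its brightest probe set too, at 20.1 in Mest-KO 3. Of these 5 genes 0 passed.

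Slc4a1, the anion exchanger band 3 and the chief membrane protein of red cells, read 2455, 2889 and 2083 (controls 1 to 3) against 3091, 2193 and 1431 (Mest-KO 1 to 3). Mest-KO 1 was above and Mest-KO 3 below every control, and the groups' difference was -0.20 ± 0.22 (adjusted p = 0.846, limma). A second bright probe set of Slc4a1 gave -0.25 ± 0.27. Ermap, a protein of the red cell surface that carries a blood group, read 669.6, 771 and 560.4 (controls 1 to 3) against 932, 641 and 406 (Mest-KO 1 to 3), with the same order and a difference of -0.081 ± 0.24. Rhag and Rhd, of the Rhesus complex, differed by -0.44 ± 0.27 and -0.35 ± 0.23, and Kel, the Kell blood group enzyme, by -0.23 ± 0.28. In Mest-KO 1 they were 3.28-fold, 2.2-fold and 2.78-fold higher than in Mest-KO 3. Icam4, an adhesion protein of red cells, did not follow this order and read 72, 74.3 and 56.7 (controls 1 to 3) against 56.5, 39.5 and 43.3 (Mest-KO 1 to 3). All 3 Mest-KO pools lay below the lowest control, Mest-KO 1 only just, and Mest-KO 2 was lowest (-0.43 ± 0.17; limma adjusted p = 0.491; exact permutation p = 0.1). Of these 6 genes 0 passed and 6 were lower in Mest-KO, with a median of -0.29 that became 0.0064 without Mest-KO 3.

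Hemgn, hemogen, a nuclear protein of blood precursors, had the largest group difference of the 33 genes and read 1325, 1197 and 1234 (controls 1 to 3) against 1163, 875 and 508 (Mest-KO 1 to 3). The 3 controls lay within 1197 to 1325 and Mest-KO 1 only just under them, while Mest-KO 2 and Mest-KO 3 were well below. Its log2 difference was -0.63 ± 0.23 (95% interval -1.13 to -0.13; limma adjusted p = 0.417; exact permutation p = 0.1), and -0.31 ± 0.13 without Mest-KO 3. Car2, carbonic anhydrase 2, which red cells hold in quantity and other cells make as well, read 3221, 3714 and 3023 (controls 1 to 3) against 3564, 2827 and 2104 (Mest-KO 1 to 3). Mest-KO 3 was again lowest and the groups overlapped (-0.26 ± 0.16). Bpgm, which makes the bisphosphoglycerate that loosens oxygen from hemoglobin, read 2164, 2709 and 2089 (controls 1 to 3) against 2847, 2426 and 2834 (Mest-KO 1 to 3). It had the largest difference above 0 (0.22 ± 0.11; adjusted p = 0.576, limma), but its other probe sets read lower in Mest-KO (-0.13 ± 0.079 and -0.11 ± 0.11). Trim10, needed for late red cell maturation, differed by -0.085 ± 0.26, and Cldn13, a claudin of mouse red cell precursors, by -0.50 ± 0.28. Of these 5 tested genes 0 passed.

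How the group comparison came out depended on which Mest-KO pools were in it. With all 6 arrays, 20 of the 21 genes made mainly in red cells were lower in Mest-KO, against 46.2% of all genes, and their median log2 difference was -0.20. Without Mest-KO 3, 9 of 21 were lower (44.6% of all genes) and the median was 0.019. Without Mest-KO 1, 21 of 21 were lower (46.9%) and the median was -0.47. With Mest-KO 2 as the only Mest-KO array, a fit chosen after seeing the data that assumes this array varies like the controls, 18 of 21 were lower (45.2%) and the median was -0.10. In none of these 3 fits did an erythroid gene pass (limma, adjusted p under 0.05), as 0.148%, 0.0212% and 0.0635% of all genes did. At an unadjusted p under 0.05 there were 1 of 33 without Mest-KO 3 (Hemgn; 9.22% of all genes, in either direction), 13 without Mest-KO 1 (6.96%) and 3 without both (5.19%).

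**Figure D3:**
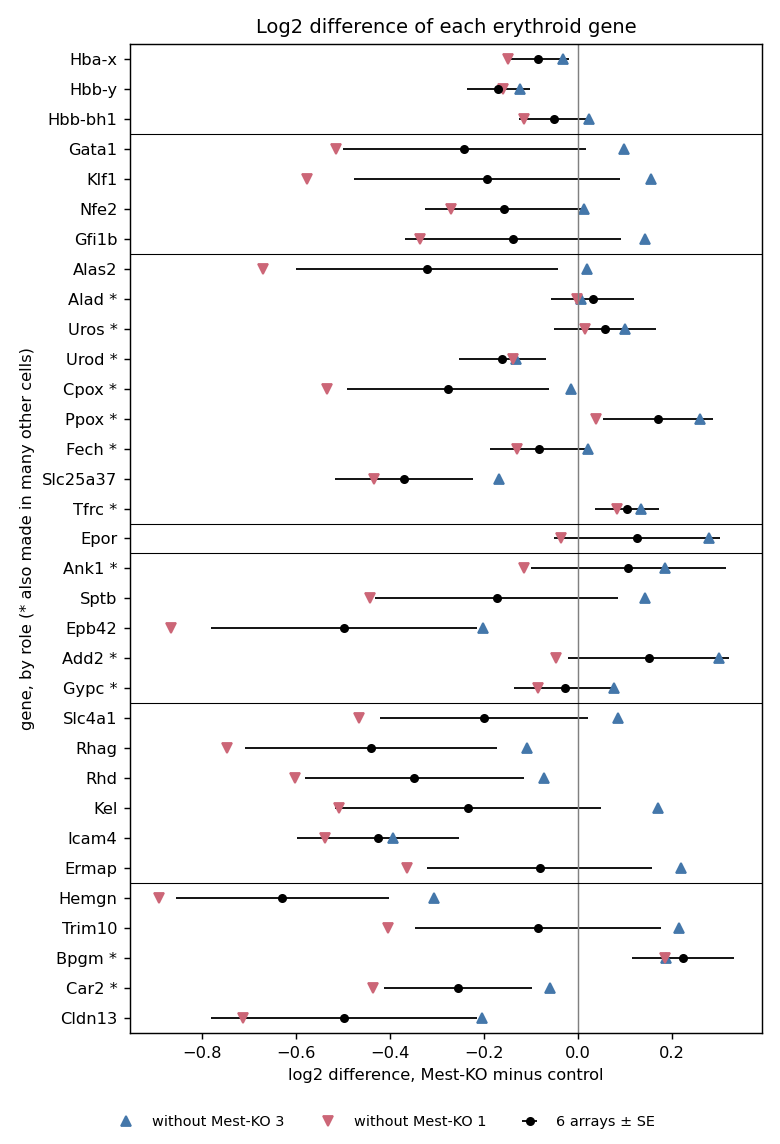
Log2 difference of each tested erythroid gene between Mest-KO and control, with its standard error from all 6 arrays (black) and the values without Mest-KO 3 (upward triangles) or without Mest-KO 1 (downward triangles). For most genes made mainly in red cells the triangles lie on opposite sides of the black point, and for the globins and for Alad, Urod and Bpgm the 3 values lie close together.

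Array means put the same pattern in 1 value per pool. For the 18 tested genes made mainly in red cells, globins aside, the mean of log2 values centred on each gene was 0.16, 0.24 and 0.0054 (controls 1 to 3) against 0.36, -0.077 and -0.69 (Mest-KO 1 to 3). Its standard deviation was 0.528 over the Mest-KO pools and 0.121 over the controls, and Mest-KO minus control was -0.27. For the 3 globins the means were 0.0024, 0.031 and 0.12 (controls 1 to 3) against 0.028, -0.014 and -0.17 (Mest-KO 1 to 3). The genes that many cells make lay between, at 0.20 in Mest-KO 1 and -0.17 in Mest-KO 3. On this scale the mean over all genes tested stayed within -0.032 to 0.024.

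Lists for other cell types gave other orders of the pools. Genes of blood endothelium (12 of 12 with a probe set) summed to 7539 to 8010.5 in control and 8196 to 8890.3 in Mest-KO, and the centred mean was 0.049 in Mest-KO 1 and 0.053 in Mest-KO 3. Macrophage genes (16 of 16) summed to 8094 to 9210.3 in control and 8985 to 11483 in Mest-KO, with centred means of -0.047 and -0.0060. Blood progenitor and leukocyte genes (8 of 8) summed to 4655 to 5183 in control and 4522 to 5387 in Mest-KO. Megakaryocyte and platelet genes (10 of 12) summed to 3612 to 3979 in control and 2425 to 3778 in Mest-KO, and their centred mean was low in Mest-KO 3 (-0.37) but not high in Mest-KO 1 (-0.069). No gene of these 4 lists was at or below the unspiked controls on all arrays. The tissue's own markers were present. Otic epithelium genes (8 of 10) summed to 7474 to 9065 in control and 8641 to 9777 in Mest-KO. Their centred means were -0.031, 0.064 and 0.083 (controls 1 to 3) against -0.011, -0.20 and 0.10 (Mest-KO 1 to 3). Periotic mesenchyme genes (7 of 7) summed to 24569 to 25555 in control and 23930.0 to 25949.6 in Mest-KO. Their centred means were 0.13, 0.092 and 0.011 (controls 1 to 3) against -0.16, -0.0057 and -0.067 (Mest-KO 1 to 3). All Mest-KO means thus lay below the controls, though 3 of these 7 genes were lower and 4 higher. Hindbrain neural tube genes (9 of 9; Olig2 at or below the unspiked controls) summed to 445 to 1415 in control and 211 to 571 in Mest-KO and were low in Mest-KO 1 and Mest-KO 3 alike. For 8 tested hindbrain genes the centred mean was 0.89, -0.19 and 1.06 (controls 1 to 3) against -0.84, 0.0061 and -0.93 (Mest-KO 1 to 3). The part of these cell types in the erythroid values was not tested.

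Measures of RNA quality had the same order as the erythroid values within Mest-KO but not over all 6 arrays. The ratio of 3′ to 5′ signal for Actb was 1.99, 1.88 and 1.74 in Mest-KO 1, 2 and 3 and 1.79 to 1.82 in control. For Gapdh it was 1.57, 1.41 and 1.37 in Mest-KO and 1.34 to 1.47 in control. Mest-KO 1 had the highest ratio of the 6 arrays for both transcripts, and Mest-KO 3 had the lowest for Actb and not for Gapdh. Mest-KO 2 had an Actb ratio above all controls and a mean of the genes made mainly in red cells below them, and control 3 had the highest ratios of the controls and the lowest such mean. Their part in the erythroid values was not tested.

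**Figure D4:**
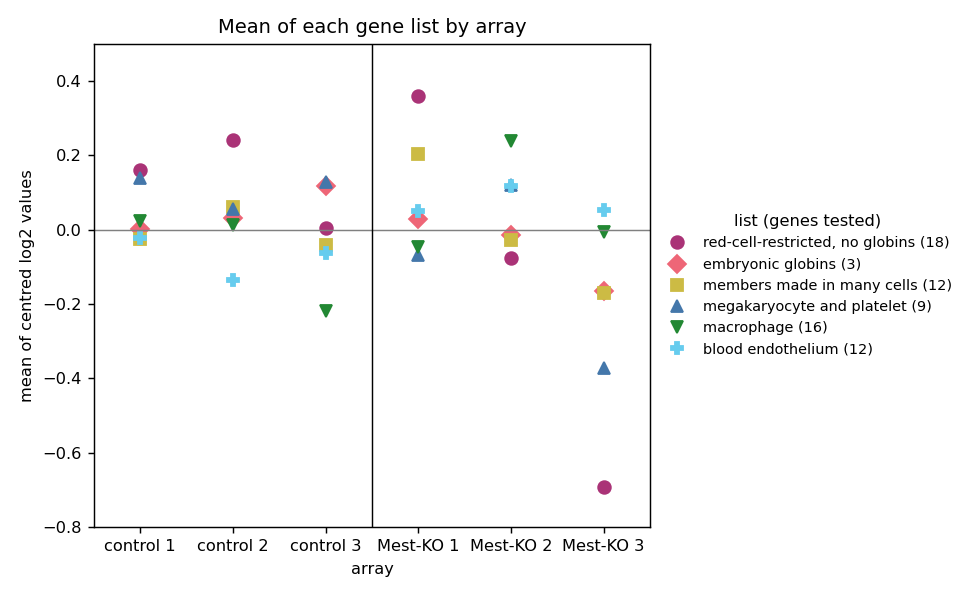
Mean over the genes of a list of log2 values centred on each gene's mean, for each of the 6 arrays; the legend gives the number of genes tested per list. Genes made mainly in red cells reach 0.36 in Mest-KO 1 and -0.69 in Mest-KO 3, while blood endothelium, macrophage and globin points stay within -0.22 to 0.24.

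Promoters of the erythroid genes were also searched for the site that GATA factors bind. The genes were chosen as red cell genes, so the motif shares describe the list and not these arrays. A RefSeq table of GRCm38.p6 held promoters, from 250 bases before to 50 after the start, for 25 of the 35 genes. The motif was AGATAA or its variant AGATAG, and likewise TGATAA or its variant TGATAG, on either strand. Of the 17 promoters of genes made mainly in red cells, 15 held it (88.2%), all but those of Gata1 and Tspo2, against 3 of 11 for the genes that many cells make and 29.8% of the 32817 promoters in the table. For CCNCNCCC, a loose form of the CACCC box that Klf1 binds, the shares were 10 of 17, 10 of 11 and 49.5%. Matches could overlap, as 4 of this second motif did in a run of G in the Hemgn promoter. A match is a run of letters, not a site shown to be bound. Promoters of the 4 brightest genes made mainly in red cells with 1 entry are shown from 5′ to 3′ on the gene's strand, with GATA motifs of either strand in capitals (TTATCA and CTATCT are TGATAA and AGATAG read from the other strand).
Hbb-y (chr7:103853158-103853457, - strand): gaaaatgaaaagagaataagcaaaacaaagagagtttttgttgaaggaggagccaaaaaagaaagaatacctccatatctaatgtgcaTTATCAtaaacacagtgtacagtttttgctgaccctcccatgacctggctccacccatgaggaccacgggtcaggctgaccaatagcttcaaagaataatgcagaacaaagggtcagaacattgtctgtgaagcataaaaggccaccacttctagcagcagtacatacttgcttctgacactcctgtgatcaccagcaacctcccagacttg
Hba-x (chr11:32276350-32276649, + strand): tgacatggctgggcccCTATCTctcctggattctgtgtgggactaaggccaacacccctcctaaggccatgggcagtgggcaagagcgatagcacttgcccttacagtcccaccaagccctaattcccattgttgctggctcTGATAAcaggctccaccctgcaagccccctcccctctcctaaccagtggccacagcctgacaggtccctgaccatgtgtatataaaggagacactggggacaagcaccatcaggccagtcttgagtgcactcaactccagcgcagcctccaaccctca
Hemgn (chr4:46404134-46404433, - strand): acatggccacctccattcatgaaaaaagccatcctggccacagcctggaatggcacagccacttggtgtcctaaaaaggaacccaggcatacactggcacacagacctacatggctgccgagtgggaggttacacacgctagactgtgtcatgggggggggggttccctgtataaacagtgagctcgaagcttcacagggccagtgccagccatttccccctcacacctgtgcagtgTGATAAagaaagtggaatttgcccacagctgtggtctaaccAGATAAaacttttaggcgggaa
Ermap (chr4:119189946-119190245, - strand): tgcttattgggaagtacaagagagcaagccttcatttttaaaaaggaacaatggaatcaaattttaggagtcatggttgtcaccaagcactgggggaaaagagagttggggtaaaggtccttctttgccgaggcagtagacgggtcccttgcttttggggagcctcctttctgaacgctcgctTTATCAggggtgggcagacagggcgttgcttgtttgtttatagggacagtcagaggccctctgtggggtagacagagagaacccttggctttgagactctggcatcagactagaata
Hbb-y and Ermap held 1 GATA motif each in these windows and Hba-x and Hemgn 2 each. In the pools, Mest-KO 1 exceeded Mest-KO 3 by 1.05-fold for Hbb-y, 1.18-fold for Hba-x, 2.29-fold for Hemgn and 2.3-fold for Ermap. A link between the motifs and the order of pools was not tested.

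Further red cell genes outside the 35 were listed for comparison. Of 60, 48 had a probe set and 47 were tested, and 0 passed (limma, adjusted p under 0.05; 3 lower and 1 higher at an unadjusted p under 0.05, against 3.24% and 5.73% of all genes), with a median log2 difference of -0.059. The 4 with the smallest p were Slc38a5, an amino acid transporter (-0.88 ± 0.16; limma adjusted p = 0.0885), Hba-a2, an adult alpha globin (-0.30 ± 0.066; 0.165), Fbxo7, of the ubiquitin system (0.34 ± 0.11; 0.335), and Cat, catalase (-0.27 ± 0.090; 0.357). Hba-a2 read 4876, 4669 and 4871 (controls 1 to 3) against 3692, 3878 and 4157 (Mest-KO 1 to 3). All 3 Mest-KO pools lay below the controls, and Mest-KO 3 was here the highest of the Mest-KO pools. Hba-a2 has a near-identical copy in Hba-a1, so its value is uncertain. Hbb-b2, an adult beta globin chosen after its values were seen, read 5531, 4601 and 2946 (controls 1 to 3) against 4223, 3847 and 1147 (Mest-KO 1 to 3). Mest-KO 3 was far the lowest, the highest array was control 1, and other beta globin copies may share its signal. Of the 47 genes, Mest-KO 3 was lowest for 14, against 19% of all genes, and Mest-KO 1 highest for 8, against 23.5%, and many of them are made in other cells too.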

How the data were processed

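RNA was measured on 1-colour Affymetrix arrays from 300 ng of total RNA each. The values the authors deposited are linear intensities; the submitters' processing notes name Affymetrix Expression Console 1.1, and how probes were summarized is not given in the sources used here. Each array had a mean intensity of 500.002 after the lowest and highest 2% were trimmed, so all had been scaled to 1 mean; medians were 60 to 70.6. Besides 64 control probe sets, not used, 34945 had 1 gene symbol, 932 several and 9160 none in the platform's annotation.

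Intensities plus 16 were put on a log2 scale, which understates changes of dim genes. A gene was represented by its probe set of highest mean, and dim genes (below the 30th percentile over probe sets, an intensity of 13.3) were not tested. Genotype was fitted in limma 3.58.1 under R 4.3.3 (eBayes with trend, two-sided) with Benjamini-Hochberg adjustment over all genes. The fit was also run on simulated data with independent noise of equal spread in both groups. That setting lacks the wide spread inside Mest-KO, so nothing is concluded from it here. Errors are SE. Values in every array were given for globins, for genes at an unadjusted p under 0.05 and for the 2 or 3 brightest of each role. The 35 genes, the other lists and the split by where genes are made were chosen with earlier results of these data known. Alternatives were 2 normalizations, 2 pseudocounts, 2 filters, the mean of all probe sets, no variance trend, the replicate number as a block and each array left out.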

Additional observations from a re-analysis of the deposited data

How the results depend on the processing

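The count of erythroid genes past the adjusted threshold was 0 in every alternative run (limma). Their count at an unadjusted p under 0.05 was 4 in the report, where 8.97% of all genes reached that level (limma). It was 2 without the variance trend, 6 with arrays centred on their medians and 1 to 13 with 1 array left out. The count was 1 without Mest-KO 3 (9.22% of all genes), 13 without Mest-KO 1 (6.96%) and 2 without control 1. Centring moved every log2 difference by -0.065. Shares of all genes are not given for the other settings, so those counts are no result about erythroid genes. The median log2 difference of all 33 ranged from -0.36 to 0.023 with 1 array left out and that of the genes made mainly in red cells from -0.47 to 0.019; without Mest-KO 3 both were above 0. Over all genes 21 passed (12 higher, 9 lower): 78 with arrays centred on their medians (22 and 56), 21 with quantile normalization (10 and 11), 2 without the filter, 6 with the mean of all probe sets, 1 without the variance trend, 9 without Mest-KO 1 and Mest-KO 3 (chosen after seeing the data), and 2 to 82 with 1 array left out (2, 82 and 6 without control 1, 2 and 3, 3, 9 and 21 without Mest-KO 1, 2 and 3). With the replicate number as a block it was 9, and 5 erythroid genes had an unadjusted p under 0.05. Same-numbered pools did not deviate together (correlations across genes of -0.028, -0.11 and -0.15), so the numbers were not taken as pairs. Signs of small log2 differences changed in some settings, with the causes not tested. With quantile normalization the value was Hbb-bh1 0.019. Without Mest-KO 1 and Mest-KO 3 the values were Gfi1b 0.026, Alad -0.086, Fech 0.032, Gypc 0.067, Ank1 -0.18, Kel 0.030. With arrays centred on their medians the values were Alad -0.033, Uros -0.0080. With the mean of all probe sets the values were Uros -0.22, Tfrc -0.027, Bpgm -0.0071. With 1 array left out, the ranges of genes that changed sign were Hbb-bh1 -0.12 to 0.023, Gata1 -0.51 to 0.099, Klf1 -0.58 to 0.16, Nfe2 -0.27 to 0.013, Gfi1b -0.34 to 0.14, Alas2 -0.67 to 0.019, Alad -0.022 to 0.092, Uros -0.033 to 0.12, Fech -0.14 to 0.022, Epor -0.037 to 0.28, Gypc -0.085 to 0.077, Slc4a1 -0.47 to 0.085, Ank1 -0.11 to 0.25, Sptb -0.44 to 0.14, Kel -0.51 to 0.17, Ermap -0.36 to 0.22, Add2 -0.047 to 0.30, Trim10 -0.40 to 0.22. With 3 arrays a group, the wide spread inside Mest-KO limits which differences can be resolved.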

Other observations

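Outside the 35 genes, 14137 others were ranked by how closely their 6 centred log2 values followed the mean of the 21 tested genes made mainly in red cells. The measure was the root mean square difference over the 6 arrays, which had a median of 0.329 over all genes tested. Closest was Dmtn, dematin, which bundles actin in the red cell membrane skeleton, at 0.0511. Among the 33 tested erythroid genes the closest was Car2, at 0.0654, though it was counted with the genes that many cells make. Dmtn read 199, 193 and 169 (controls 1 to 3) against 217, 151 and 107 (Mest-KO 1 to 3), in the same order of Mest-KO pools as Klf1 and Slc4a1. Among the 15 closest were also Tal1, a transcription factor needed to found the blood lineage (0.123), Ikzf1, a transcription factor of blood cells (0.12), and Tspan32, a tetraspanin of blood cells (0.0703). Tal1 read 793, 725 and 697 (controls 1 to 3) against 882, 719 and 375 (Mest-KO 1 to 3), with Mest-KO 3 far below the other 5 pools.

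The other 11 were Aig1, Prokr1, Fzd9, Nrsn2, Cxcl10, Adcy7, Ifi47, Grap2, Dclk1, Lhfpl3 and Slc39a8, at 0.0746 to 0.125. Several of them are known from other tissues, such as Dclk1, a kinase of neuron microtubules, and Fzd9, a WNT receptor. Aig1, Prokr1, Fzd9, Nrsn2 and Cxcl10 lay closer than Ikzf1 and Tal1. Of the 15 closest, 2 (Dmtn and Tal1) were in the list of further red cell genes. Likeness over 6 arrays is a description with no test. In Mest-KO against control, none of the 15 passed (limma, adjusted p from 0.64 to 0.964), and Mest-KO 3 was the lowest array in all 15, as the measure favours.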
